A study of Homo sapiens with 18 samples.

Results

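The regions described here carried the histone mark H3K27ac, away from promoters, in 2 conditions of one lung adenocarcinoma line. These are cells treated with TGF-β1 and a subline by its name, together called derivatives here. The untreated line and a separate line had no called H3K27ac peak nearby. The regions were chosen by their H3K27ac and H3K4me3 peak positions. A summit (the highest base of a peak) of H3K27ac in H2087-LCC cells given TGF-β1 was kept when H2087-LCC-SO1 cells had an H3K27ac summit within 500 bp. Neither replicate of untreated H2087-LCC and no H2030 library could have an H3K27ac summit within 5 kb, and no condition an H3K4me3 summit within 2.5 kb. Of the 38056 distal summits of the treated cells, meaning those that met the H3K4me3 condition alone, 2108 met the whole rule, or 5.54%. Sharing with SO1 alone was met by 42.4% of them. Merging summits within 1 kb gave 1984 regions, of 33472 distal regions in all. The number rests on both untreated replicates: it was 2317 without replicate 1 and 3645 without replicate 2.

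The study profiled H3K27ac, H3K4me1 and H3K4me3 by chromatin immunoprecipitation and sequencing in 4 conditions of human lung adenocarcinoma cells. TGFb stands for H2087-LCC cells treated with 100 nM TGF-β1 for 4 days, as the labels give dose and time. SO1 stands for H2087-LCC-SO1, a subline by its name, whose derivation the labels leave out. H2030 is a separate lung adenocarcinoma line grown in a simpler medium, and LCC stands for untreated H2087-LCC, grown in the same medium as SO1. The H3K27ac mark was profiled in 2 biological replicates of LCC, and all else in 1 library per condition and mark. Presence or absence in TGFb, SO1 and H2030 therefore has no replicate check, and no test was run. The H3K27ac lists held 68069 summits in TGFb, 56279 in SO1, 52414 in H2030, and 50628 and 62947 in the LCC replicates. Read depth per library is unknown.

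H3K27ac is laid down by the acetyltransferases CBP and its close relative and marks active enhancers and promoters. H3K4me1, set by the methyltransferases KMT2C and KMT2D, marks enhancers whether active or not, and an enhancer with H3K4me1 alone is commonly called primed. H3K4me3 marks promoters, so the rule leaves candidate enhancers. TGF-β1 is a secreted cytokine that signals through SMAD transcription factors, and in carcinoma cells it is known for growth arrest and for the change from an epithelial to a mesenchymal state. H3K4me1 was not used to choose the regions and is the readout here. It comes from the same conditions as the H3K27ac that chose them, so it is not independent of that choice.

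The members had mostly weak H3K27ac peaks in both TGFb and SO1 when set against the whole lists, which include summits near H3K4me3. Against distal regions alone the gap was smaller. Each summit carries a score, a −log10 value of the peak's significance (p or q) as the authors deposited it, and the percentile below gives the share of the summits in a library's own list that score no higher. In TGFb the score had a median of 10.4, quartiles of 5.91 and 19.6 and a range from 1.55 to 340. In SO1 the median was 12.9, the quartiles 6.86 and 27.1 and the range 1.37 to 379. The median member stood at the 35.4 percentile of the TGFb list and the 33.2 percentile of the SO1 list, below the middle of each. The score reached the median of its own list in 460 members in TGFb and in 437 in SO1, and in 164 members (8.27%) it did so in both. The whole lists had medians of 20.9 in TGFb and 30.1 in SO1. Over all distal regions the median score was 12.87 in TGFb and 16.6 in SO1, closer to the members' 10.4 and 12.9. Regions acetylated in one derivative alone, defined below, had lower medians than the members, 7.17 for TGFb and 7.999 for SO1. The scores of the same region in the 2 lists followed each other only loosely, with a Spearman rho of 0.248 over 1984 regions. This is a description over regions that share their 2 libraries and sequence context.

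**Figure D1:**
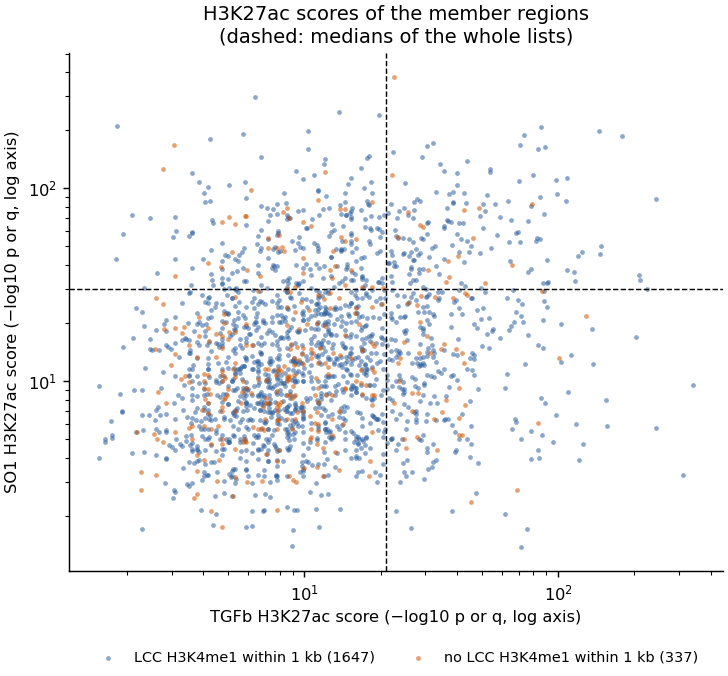
Each point is 1 of the 1984 member regions, with its TGFb H3K27ac score on the x axis and its SO1 score on the y axis (−log10 of p or q, log axes); dashed lines are the medians of the whole lists, and colour shows whether LCC had an H3K4me1 summit within 1 kb (1647 regions) or not (337). Most points lie in the lower left field, below both medians, and the 2 colours occupy the same field.

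The TGFb and SO1 summits lay close together within the 500 bp that the rule allowed. Their median distance was 76.5 bp, and 1185 of the 1984 pairs (59.7%, Wilson 95% interval 57.6 to 61.9) were within 100 bp. These intervals and those that follow cover counting error only. Most members, 1860, held a single TGFb summit, and 124 held 2 that were merged.

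At the edges of the rule the peaks were neither uniformly weak nor strong. The TGFb summit just inside the SO1 distance, at 18:6222207, had its SO1 summit 500 bp away, with scores of 4.16 in TGFb and 3.27 in SO1. The one just outside, at 1:89229214, had it 501 bp away, with scores of 16.6 in TGFb and 2.17 in SO1. Just inside the LCC distance stood 10:90285950, 5028 bp from LCC H3K27ac (3.25 in TGFb, 4.70 in SO1), and just outside it 5:123970362, at 4996 bp (8.20 in TGFb, 9.11 in SO1). For H2030 these were 1:214731894 at 5009 bp (86.2 in TGFb, 5.22 in SO1) and 6:132180108 at 4962 bp (20.1 in TGFb, 13.3 in SO1). For H3K4me3 they were 2:73092230 at 2557 bp (4.32 in TGFb, 33.4 in SO1) and 1:114411715 at 2359 bp (19.3 in TGFb, 82.6 in SO1). All positions are hg19 coordinates counted from 1.

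The distance to LCC H3K27ac was used by the rule, which set it above 5 kb, and is given as a description. The nearest LCC H3K27ac summit of either replicate was 17.9 kb away at the median, and 533 members (26.9%, 25.0 to 28.9) had one between 5 and 10 kb. Only 155 members (7.81%, 6.71 to 9.08) had none within 100 kb. H2030 was more distant, with a median of 29.8 kb and 387 members (19.5%) without a summit within 100 kb. The nearest H3K4me3 summit of any condition was 25.6 kb away at the median, and for 1619 members (81.6%) it was farther than 10 kb.

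The same distances can be set beside those of regions acetylated in one derivative alone, which the rule also kept 5 kb from LCC H3K27ac. Under the same rule, 3903 distal regions had H3K27ac in TGFb and none in SO1, H2030 or LCC within 5 kb, here called TGFb-only. The converse gave 2823 SO1-only regions. The median distance to LCC H3K27ac was 17.9 kb for members, 17.3 kb for TGFb-only and 21.4 kb for SO1-only regions. No LCC summit lay within 100 kb of 7.81% (6.71 to 9.08) of the members, 9.40% (8.53 to 10.4) of the TGFb-only and 12.01% (10.9 to 13.3) of the SO1-only regions. One lay between 5 and 10 kb from 26.9% (25.0 to 28.9) of the members, 29.6% (28.2 to 31.1) of the TGFb-only and 21.7% (20.3 to 23.3) of the SO1-only regions. Members thus lay closer to LCC H3K27ac than SO1-only regions by both shares, while their intervals overlap those of TGFb-only regions.

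The count of members can be set beside what the rule gives for other combinations of lists. Of the distal TGFb summits, 26.0% had no LCC H3K27ac within 5 kb, as did 27.3% of the distal SO1 summits. Requiring TGFb and H2030 to share the region, and SO1 and LCC to lack it, gave 705 regions, and the same for SO1 and H2030 gave 338. A further 564 regions were shared by TGFb, SO1 and H2030 and absent from LCC. Single LCC replicates gave a view of peaks found in one replicate and missed in the other. TGFb shared 192 such regions with replicate 1 alone and 1121 with replicate 2 alone, while SO1 shared 104 and 361. Replicate 2 thus gave most of them. Its list was longer, with 62947 summits against 50628 in replicate 1, and the other lists compared differ in length too. Whether length or another difference between the replicates gave this imbalance was not tested.

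H3K4me1 accompanied almost every member in the derivatives and most members in untreated LCC. An H3K4me1 summit lay within 1 kb of 94.5% of the members in TGFb (1875 regions, 93.4 to 95.4) and of 96.7% in SO1 (1918, 95.8 to 97.4). It lay within 1 kb of 33.4% in H2030 (663, 31.4 to 35.5) and of 83.0% in LCC (1647, 81.3 to 84.6). LCC therefore carried the enhancer mark at most of the regions where its H3K27ac lists had no summit within 5 kb. Over all distal TGFb regions the shares were 84.8% in TGFb, 75.9% in SO1, 44.5% in H2030 and 78.3% in LCC. The members' share was thus slightly above that of distal TGFb regions in LCC, further above it in TGFb and SO1, and below it in H2030. Distal TGFb regions need not carry SO1 H3K27ac and may carry LCC or H2030 H3K27ac, so the sizes of all these gaps, those in TGFb and LCC included, depend on the rule. Over all distal SO1 regions the shares were 83.1% in TGFb, 87.3% in SO1, 46.5% in H2030 and 79.6% in LCC. TGFb and SO1 H3K4me1 come from the conditions whose H3K27ac chose the regions, and both derivatives are set against the same LCC list.

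The commonest combination was H3K4me1 in TGFb, SO1 and LCC without H2030, at 1023 members (51.6%). All 4 conditions carried it at 565 (28.5%). The mark was in TGFb and SO1 and in neither LCC nor H2030 at 182 (9.17%), and in TGFb, SO1 and H2030 without LCC at 67 (3.38%). At 21 members (1.06%) no condition had an H3K4me1 summit within 1 kb. Each of the remaining combinations held 43 members or fewer.

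Members differed from regions acetylated in one derivative alone in the H3K4me1 that LCC carried. The LCC share was 83.0% for members, 68.6% (67.2 to 70.1) for TGFb-only and 58.3% (56.4 to 60.1) for SO1-only regions, and the 3 intervals do not overlap. The members did not stand apart in this from the 564 regions that TGFb and SO1 shared with H2030 and LCC lacked. In those, H3K4me1 was present at 92.6% in TGFb, 95.6% in SO1 and 80.9% (77.4 to 83.9) in LCC, an interval that overlaps the members'. Regions shared by TGFb, SO1 and both LCC replicates and absent from H2030, here called H2087-wide (3429 regions), had H3K4me1 in 93.8% (93.0 to 94.6) in LCC. The derivative that lacked H3K27ac also had fewer H3K4me1 summits: SO1 had them at 63.9% of the TGFb-only regions and TGFb at 66.6% of the SO1-only regions. H2030 had them at 33.4% of the members, 27.5% of the TGFb-only, 22.7% of the SO1-only and 33.0% of the H2087-wide regions.

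**Figure D2:**
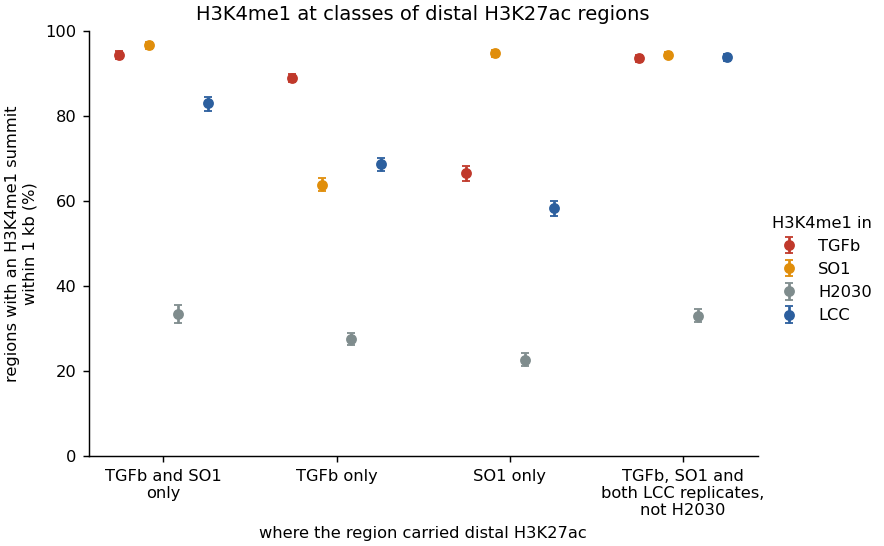
Share of regions with an H3K4me1 summit within 1 kb (y axis, %), for members and 3 other classes of distal H3K27ac regions (x axis); colours are the H3K4me1 library, and bars are Wilson 95% intervals over regions. In members the TGFb and SO1 shares stand at 94.5% and 96.7% above LCC at 83.0%, while in the H2087-wide class all 3 lie between 93.6% and 94.4%.

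The LCC share was higher where the TGFb peak was stronger, and the members' value was between those of TGFb-only and H2087-wide regions at every step. For members it was 77.5% at TGFb H3K27ac scores below 5 (347 regions), 81.8% from 5 to 10 (628), 84.0% from 10 to 20 (524), 87.2% from 20 to 40 (305) and 87.8% at 40 and above (180). TGFb-only regions gave 65.1%, 67.9%, 71.3%, 71.7% and 78.9% over the same steps. In H2087-wide regions it was between 91.3% and 94.3% throughout. Over all distal TGFb regions it was 62.3% below a score of 5 and 89.5% at 40 and above. Members were thus above the general share at scores below 10, and from 10 on their intervals (80.6 to 86.9, 83.0 to 90.5 and 82.2 to 91.8) include it. At 40 and above the intervals of members and TGFb-only regions (72.7 to 84.0) overlap as well.

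**Figure D3:**
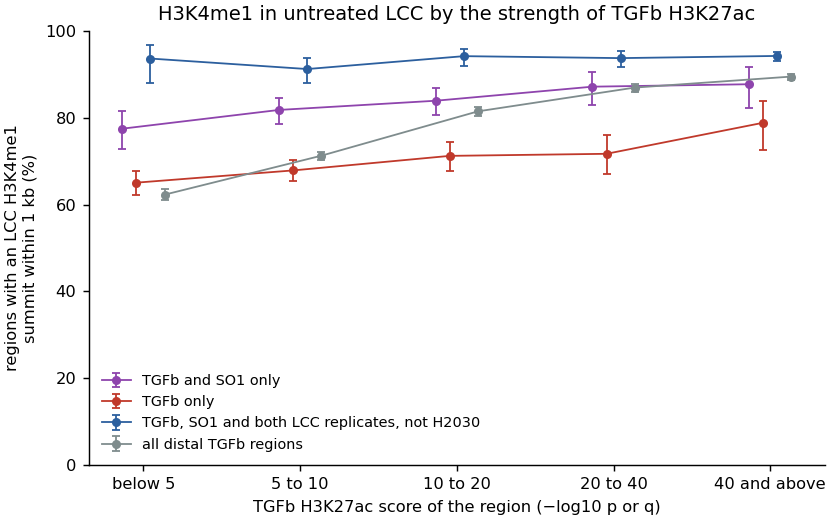
Share of regions with an LCC H3K4me1 summit within 1 kb (y axis, %) by the TGFb H3K27ac score of the region (x axis, steps of −log10 of p or q), with Wilson 95% intervals. The member line runs between the TGFb-only line below it and the H2087-wide line above it, and all distal TGFb regions climb across it, 62.3% at the lowest and 89.5% at the highest step.

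Where H3K4me1 was present at members, its median score was 19.4 in TGFb, 37.6 in SO1, 7.81 in H2030 and 12.2 in LCC. Scores depend on the library, so the lists were cut to the 128082 highest-scoring summits each and ranks were compared. In these lists of equal length the median member stood at the 65.1 percentile in TGFb, 75.7 in SO1, 46.0 in H2030 and 47.7 in LCC. H2087-wide regions stood at 84.8 in TGFb, 85.1 in SO1, 46.0 in H2030 and 87.3 in LCC. The members' LCC H3K4me1 was thus near the middle of its list, where that of H2087-wide regions was near the top. This was not particular to members, since the LCC median was 45.1 for TGFb-only and 41.2 for SO1-only regions. Over all distal TGFb regions it was 70.9.

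Region by region, H3K4me1 at members ranked higher in either derivative than in LCC. Among the 1533 members with a summit in both, 1218 (79.5%, 77.4 to 81.4) ranked higher in TGFb than in LCC, and the median difference, TGFb minus LCC, was 16.2 percentile points. For SO1 and LCC it was 1376 of 1546 (89.0%, 87.3 to 90.5), with a median difference, SO1 minus LCC, of 25.5 points. Over all distal TGFb regions, 56.7% ranked higher in TGFb than in LCC and 53.7% higher in SO1 than in LCC. Both comparisons use the same LCC list.

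In the other classes the ranks followed the derivative that carried H3K27ac. TGFb-only regions ranked higher in TGFb than in LCC in 78.5% (76.8 to 80.1) and higher in SO1 than in LCC in 50.0% (47.8 to 52.3). SO1-only regions ranked higher in SO1 than in LCC in 88.0% (86.2 to 89.6) and higher in TGFb than in LCC in 56.2% (53.4 to 58.9). In H2087-wide regions these shares were 41.1% for TGFb and 45.3% for SO1. Regions that TGFb shared with LCC replicate 2 alone, whose median TGFb score of 9.22 was close to the members' 10.4, gave 51.5% (48.3 to 54.7) for TGFb over LCC and 24.1% for SO1 over LCC. Regions that SO1 shared with LCC replicate 2 alone gave 62.9% (57.5 to 68.0) for SO1 over LCC, a median difference of 7.41 points, although that replicate had the H3K27ac peak, and 23.7% for TGFb over LCC. A higher H3K4me1 rank in SO1 than in LCC was thus also the more frequent case where SO1 shared H3K27ac with LCC replicate 2, at a lower share than the members' 89.0%. Where TGFb shared it with that replicate and SO1 lacked it, a higher SO1 rank was the less frequent case (24.1%). LCC H3K4me1 was present at 83.0% of the members, against 91.8% (90.0 to 93.3) of the regions shared by TGFb and LCC replicate 2 and 93.1% (90.0 to 95.3) of those shared by SO1 and that replicate. These classes were chosen by an LCC H3K27ac peak and by its absence in the other derivative, so they differ from members by selection. Missed LCC peaks and absent LCC H3K27ac cannot be told apart here, at a single member or over the members.

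Where H3K4me1 was present, its summits gathered at the H3K27ac summit. Among members with an H3K4me1 summit within 5 kb, the nearest lay at a median of 190 bp in TGFb (1923 members) and 162 bp in SO1 (1962). In H2030 the median was 358 bp (852) and in LCC 186 bp (1737). Of all members, with or without H3K4me1, 55.7% had a summit within 250 bp in TGFb, 58.3% in SO1, 16.9% in H2030 and 51.2% in LCC. These last shares therefore also reflect how often the mark was present. Within 5 kb a member had on average 1.58 H3K4me1 summits in TGFb, 1.496 in SO1, 0.695 in H2030 and 1.35 in LCC. H2087-wide regions had more, 1.89 in TGFb, 1.66 in SO1, 0.737 in H2030 and 1.82 in LCC.

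**Figure D4:**
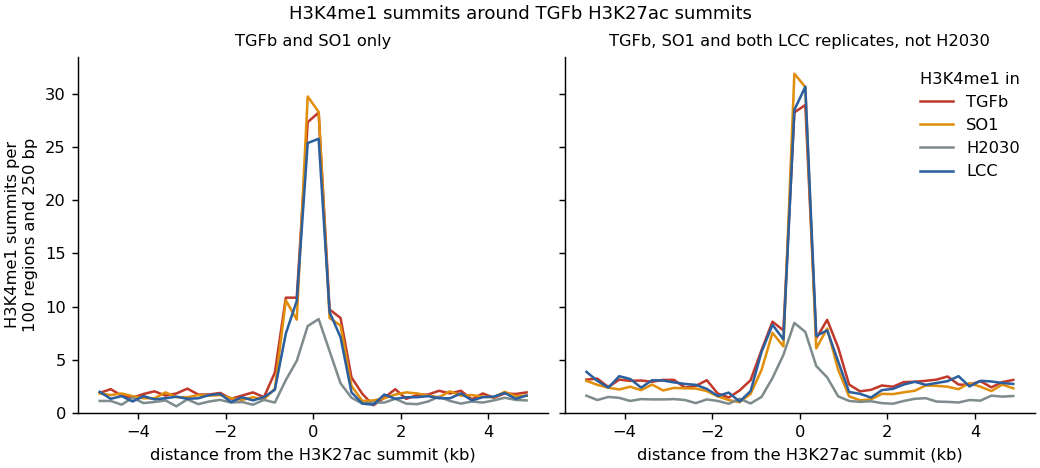
H3K4me1 summits per 100 regions and 250 bp (y axis) by distance from the TGFb H3K27ac summit (x axis, kb), for members on the left and H2087-wide regions on the right; lines are the 4 H3K4me1 libraries. The TGFb, SO1 and LCC lines peak at the H3K27ac summit with a shoulder on each side, and in members the LCC line peaks lower than TGFb and SO1 while H2030 is lowest in both panels.

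At 337 members (17.0%, 15.4 to 18.7) LCC had no H3K4me1 summit within 1 kb, and at 247 (12.4%) none within 5 kb. TGFb and SO1 both had H3K4me1 at 249 of the 337 (73.9%, 68.9 to 78.3), and H2030 had it at 83 (24.6%, 20.3 to 29.5). Among the members with LCC H3K4me1, H2030 had it at 580 of 1647 (35.2%, 32.9 to 37.6). The members without LCC H3K4me1 had somewhat weaker H3K27ac, with median scores of 9.04 in TGFb and 11.2 in SO1, against 11.0 in TGFb and 13.3 in SO1 for the others. Their H3K4me1 scores also had lower medians, 10.4 in TGFb and 26.5 in SO1, against 20.8 and 39.7 in the others.

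The 20 members that ranked highest in both H3K27ac lists had scores from 56.6 to 244 in TGFb (median 85.5) and from 74.0 to 207 in SO1 (median 110). They were picked by the lower of their 2 percentiles, so these values are a description. LCC carried H3K4me1 at 19 of the 20, with scores from 4.82 to 38.8 (median 10.5), while H2030 did at 4. At each of the 19 the TGFb H3K4me1 score was above the LCC score, although scores of different lists are not on one scale. For 15 of the 20 the nearest LCC H3K27ac summit was farther than 10 kb.

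The first of them, 3:180126886, scored 179 in TGFb and 187 in SO1 for H3K27ac, and the LCC summits nearest to it were 24.0 kb away in both replicates. Its H3K4me1 scored 44.6 in TGFb, 79.7 in SO1 and 10.5 in LCC, and H2030 had none within 1 kb. An H3K4me3 summit lay 2619 bp away, just beyond the distance that the rule clears. The member ranked first was thus also among those nearest to a promoter mark. The second, 11:72281496, scored 145 in TGFb and 198 in SO1, with H3K4me1 of 48.5 in TGFb, 111 in SO1 and 13.4 in LCC. LCC H3K27ac lay 61.8 kb away in replicate 1 and 9.64 kb away in replicate 2.

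At 4:82528486 the H3K27ac scores were 109 in TGFb and 113 in SO1, and the nearest summits were 180 kb (replicate 1) and 152 kb (replicate 2) away in LCC and 238 kb in H2030. LCC still had H3K4me1 there, with a score of 10.6, where TGFb had 39.6 and SO1 55.2. This was the most isolated of the first 10. A comparable setting was seen at 18:42983203, with 78.2 in TGFb and 81.2 in SO1, where LCC H3K27ac was 205 kb away in both replicates and LCC H3K4me1 scored 5.31. At 14:29912270 (70.1 in TGFb, 110 in SO1) LCC H3K27ac was 200 kb away in replicate 1 and 104 kb in replicate 2, and LCC H3K4me1 scored 23.4.

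The region 4:152665753 scored 98.6 in TGFb and 110 in SO1 and had the highest LCC H3K4me1 score of the 20, 38.8, beside 46.7 in TGFb and 88.2 in SO1. H2030 had H3K4me1 there too (8.50). The region with the highest TGFb score among the 20 was 20:57117016, with 244 in TGFb and 87.8 in SO1. The highest SO1 score was at 9:16024063, with 85.9 in TGFb and 207 in SO1. Of the 20, only 18:9049033 (79.0 in TGFb, 82.5 in SO1) had no LCC H3K4me1 within 1 kb; its TGFb and SO1 H3K4me1 scores were 11.5 and 28.3.

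The rest were less extreme in these respects. The first of these by rank were 3:115367962 (TGFb 88.6, SO1 164), 19:52255481 (TGFb 83.3, SO1 161), 17:5412707 (TGFb 99.2, SO1 93.6), 1:210567514 (TGFb 79.6, SO1 117) and 9:116437536 (TGFb 85.2, SO1 89.8). Next came 3:149420724 (TGFb 73.3, SO1 189), X:38172176 (TGFb 108, SO1 86.5), 5:72552644 (TGFb 70.8, SO1 169) and 6:135174971 (TGFb 63.3, SO1 86.4). The list ended with 10:104028046 (TGFb 88.1, SO1 74.0) and 2:47587926 (TGFb 56.6, SO1 83.1).

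Most members scored below the list median in H3K27ac, as only 460 of the 1984 reached it in TGFb and 437 in SO1. The 5 members with the strongest LCC H3K4me1 did not differ in this. All 5 scored below that median in TGFb, and 4 of them in SO1. The highest was 12:62685597, with an LCC H3K4me1 score of 69.3, beside 32.8 in TGFb, 73.5 in SO1 and 20.3 in H2030. Its H3K27ac scored 5.75 in TGFb and 21.97 in SO1. At 3:189848965 LCC H3K4me1 scored 68.7 and H3K27ac 7.03 in TGFb and 6.23 in SO1. The others were 10:294222 (LCC H3K4me1 66.7), 8:126981189 (63.6) and 8:124374762 (60.2). At 8:126981189 the H3K27ac score was 14.0 in TGFb and 73.6 in SO1, and the nearest LCC H3K27ac summit was 267 kb away in both replicates.

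Where LCC had no H3K4me1 within 5 kb, the strongest members by both lists were 18:9049033, already given, and 5:32985437. The region 5:32985437 scored 48.9 in TGFb and 79.1 in SO1 for H3K27ac, with H3K4me1 of 28.6 in TGFb, 32.5 in SO1 and 4.51 in H2030, and the nearest LCC H3K4me1 summit was 51.0 kb away. At 2:194699171 (42.7 in TGFb, 77.3 in SO1) only SO1 had H3K4me1, with 22.6, and LCC H3K27ac was 616 kb away in both replicates. The last 2 were 3:158548593 (46.3 in TGFb, 55.3 in SO1) and 18:30615554 (29.5 in TGFb, 63.3 in SO1). The nearest LCC H3K4me1 was 21.7 kb from 3:158548593 and 114 kb from 18:30615554. At these 5 regions LCC had a summit of neither mark within 5 kb, while both derivatives had H3K27ac.

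Most members stood alone, and some formed groups. Chaining members within 100 kb left 1404 alone, while 580 fell into 255 groups of 2 or more and 162 into 46 groups of 3 or more. These counts are a description, as no such count is given for other distal regions. Whether members group more or less than those was not tested. The largest group, at 12:45722276-45833280, held 6 members over 111 kb. Neither LCC replicate had an H3K27ac summit in this span, extended by 500 bp on each side as in the counts below, where TGFb had 11, SO1 7 and H2030 1. H3K4me1 was present in every condition, with 15 summits in TGFb, 11 in SO1, 8 in H2030 and 12 in LCC, and no condition had H3K4me3. All 6 members carried H3K4me1 in LCC, and 2 did in H2030. Their scores ran from 4.47 to 33.1 in TGFb and from 4.18 to 95.2 in SO1. The list median was reached by 1 member in TGFb (20.9) and by 3 in SO1 (30.1), with SO1 scores of 72.7, 91.5 and 95.2.

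**Figure D5:**
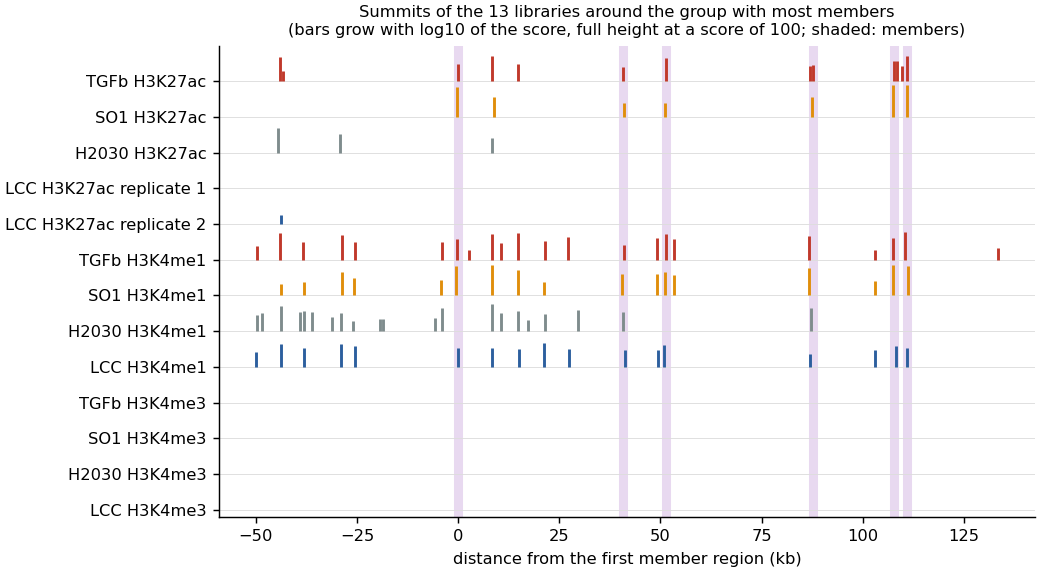
Summits of the 13 libraries (rows) along the group of 6 members, by distance from its first member (x axis, kb); bar height grows with log10 of the score and shading marks the members. Both LCC H3K27ac rows are empty across the members, while the LCC H3K4me1 row has a summit at each of the 6.

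Of the 6 groups of 5 members, 11:72281496-72336308 also had no LCC H3K27ac. It held 7 H3K27ac summits in TGFb, 6 in SO1, and 0 in H2030 and in both LCC replicates. All 5 members carried LCC H3K4me1, and none carried it in H2030. It includes the second strongest member by rank, and H3K4me3 was present in the span in all conditions (1 summit in TGFb, 1 in SO1, 2 in H2030, 1 in LCC). The groups 5:121457511-121519362 and 14:29779959-29987244 were nearly empty of LCC H3K27ac as well. The first held 10 summits in TGFb, 6 in SO1, 1 in H2030, and 0 and 1 in the LCC replicates. The second, which holds 14:29912270, had 8 in TGFb, 7 in SO1, 0 in H2030, and 0 and 1 in LCC.

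The other 3 groups lay among H3K27ac that LCC shared. The span 10:78864130-78996963 held 17 summits in TGFb, 11 in SO1, 4 in H2030, and 5 and 8 in the LCC replicates, and 3:115237045-115416461 held 11 in TGFb, 10 in SO1, 1 in H2030, and 3 and 4 in LCC. In 4:26034167-26193483 there were 13 in TGFb, 13 in SO1, 0 in H2030 and 8 in each LCC replicate. That group differed from the rest in H3K4me1, which LCC carried at 1 of its 5 members, against 3 of 5 in the group on chromosome 14 and every member of the remaining groups.

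Members were found on all 23 chromosomes examined. Their share of the distal TGFb regions was 5.93% (5.68 to 6.19) overall. It was lowest on chromosome 22 (20 of 678, 2.95%, 1.92 to 4.51), 19 (21 of 594, 3.54%) and 17 (52 of 1408, 3.69%). The highest shares were on chromosomes 4 (138 of 1545, 8.93%, 7.61 to 10.5) and 18 (43 of 542, 7.93%). Chromosome 1 held the most members, 180, at a share of 5.41%. DNA copy number differences between the lines were not analysed here.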

How the data were processed

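The members and the lists were chosen with earlier results of these data known. The submitters' processing notes name hg19 with Bowtie2, SAMtools and deepTools. How peaks were called, with which program and control, is not given in the sources used here. The deposited files each list the 1-bp peak summits of 1 library with the authors' score. This deposited score is taken here to be a −log10 of p or q, since the lowest lies just above 1.30103, the −log10 of 0.05. Of 18 samples, 13 libraries had a peak file, and the 5 inputs were not used here. Widths and reads are not in them, so read depth is unknown and a broad peak counts only through its summits.

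Summits on chromosomes 1 to 22 and X were kept, which left out 29 to 238 per library. Summits were compared by distance (Python 3.11.15, numpy 2.4.6). A merged region was placed at its highest TGFb summit, and the SO1-only class at SO1 summits. H3K4me1 was looked up within 1 kb of any summit of a region, and the highest score taken. Shares have Wilson 95% intervals (scipy 1.17.1). Named regions were the 20 with the highest lower percentile of both H3K27ac scores, the 5 with the strongest LCC H3K4me1, the 5 strongest without LCC H3K4me1 within 5 kb, the 5 largest groups with all groups tied with the fifth, and the regions at the edges of the rule. Ranks in lists of equal length and steps of score were added after seeing the data. The selection was tested on simulated data, and no comparison has a test. The gene tables at hand are of another build than hg19, so no gene is named and no sequence or motif was examined. Alternatives are given in the closing section.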

Additional observations from a re-analysis of the deposited data

How the results depend on the processing

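The number of members stayed within 1.5 times of 1984 under 11 of 13 alternatives. It was 693 when both H3K27ac scores had to reach 10, and leaving out each LCC replicate gave 2317 to 3645. The share of members with LCC H3K4me1, 83.0%, became 87.0% with scores of at least 10, 86.3% with H3K27ac lists of equal length, and 84.3% to 88.0% with an LCC replicate left out. With an H3K4me1 window of 500 bp it was 71.6%, with 2500 bp 85.0%, with H3K4me1 scores of at least 5 73.3%, and with H3K4me1 lists of equal length 79.3%. The H2030 share, 33.4%, became 27.4% and 37.6% with the windows of 500 and 2500 bp and 24.5% with H3K4me1 scores of at least 5, and was 33.3% to 34.9% without an LCC replicate. Under the remaining alternatives, 10 for the LCC share and 14 for the H2030 share, the value stayed inside the interval given in the report. The TGFb and SO1 shares, recomputed under the same settings after seeing the data, ranged from 77.0% to 96.3% and from 77.7% to 98.2%, the lowest with the 500 bp window. No paired analysis was possible because only LCC H3K27ac has numbered replicates with peak files. Depth limits what an absent summit means: the files hold no reads, so weak H3K27ac in LCC below the caller's limit is not seen.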

Other observations

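Regions in this part were chosen after their values were seen. A group of 4 members at 2:74016130-74035944, spanning 19.8 kb, had no H3K4me1 summit of LCC or H2030 and no LCC or H2030 H3K27ac summit. TGFb had 4 H3K27ac summits there and SO1 had 5. Their scores were low, from 2.63 to 9.04 in TGFb and from 5.02 to 10.2 in SO1 at the members. H3K4me1 was present in the derivatives, with 2 summits in TGFb and 3 in SO1, and no condition had H3K4me3. The 7 larger groups, which span more bases, each held at least 6 LCC H3K4me1 summits.

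The member farthest from LCC H3K27ac was 2:81718792, with scores of 25.5 in TGFb and 25.5 in SO1 at summits 9 bp apart. The nearest LCC H3K27ac summit lay 1659 kb away in replicate 1 and 1660 kb in replicate 2, and the nearest in H2030 1768 kb away. No condition had H3K4me1 within 1 kb. Next came 4:132888630 (14.4 in TGFb, 9.08 in SO1), where LCC H3K27ac was 977 kb away in replicate 2 and only SO1 had H3K4me1, with a score of 14.2. The neighbours on chromosome 14, at 48800540 and 48820606, were about as remote from LCC H3K27ac, at 953 and 933 kb, but carried H3K4me1 in LCC, with scores of 43.1 and 12.6. TGFb H3K4me1 scored 45.6 and 35.1 and SO1 67.7 and 40.3 at them.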
